A study of Mus musculus with 9 samples.

Results

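The transcripts of 6 genes were described in brain RNA of the CAIX knockout mouse and its wild-type control: Clic6, Prlr, Enpp2 and Col8a1, which mark the epithelium of the choroid plexus, and Dcn and Mgp, which mark the meninges and other fibroblast-rich coverings of the brain. They were picked by name, as every probe whose identifier carries the NCBI gene number of 1 of the 6 genes. That rule uses no measured value, but the 6 genes were chosen with earlier results of these data known. The rule gave 8 probes for 6 of the 8702 genes that could be named on the array. Brain RNA from 4 knockout mice (CAIX ko in the labels) and 5 wild-type mice had been hybridised to Illumina bead arrays, 1 array per mouse. Both groups were on the C57BL/6 background and 8 months old, and the labels name no other allele and no treatment. CAIX, the product of Car9, is a carbonic anhydrase of the cell surface. The labels give neither the sex of the mice, nor the structure of the targeted allele, nor the part of the brain that was taken.

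The choroid plexus is a folded sheet of epithelium on a core of vessels and stroma inside the brain's ventricles, and it secretes the cerebrospinal fluid. The meninges are the membranes that wrap the brain, and their fibroblasts lay down collagens and proteoglycans. Clic6 encodes a member of the chloride intracellular channel family. Prlr encodes the prolactin receptor, a cytokine receptor that binds blood-borne prolactin at the choroid plexus. Enpp2 encodes autotaxin, a secreted enzyme that makes the signalling lipid lysophosphatidic acid and that oligodendrocytes also produce. Col8a1 encodes a chain of collagen VIII, a short-chain collagen of basement membranes. Dcn encodes decorin, a small proteoglycan that binds collagen fibrils, and Mgp encodes matrix Gla protein, an inhibitor of calcification that vessel walls also make.

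Upstream sequence is shown for Prlr and Col8a1 because only these were found in the promoter table. Their correlation across arrays (Pearson r = 0.922, Spearman rho 0.567) played no part in that choice. Of the 6 genes these 2 matched, and Clic6, Enpp2, Dcn and Mgp did not. Each line gives the 250 bases before an annotated start, 5' to 3' on the gene's strand, from RefSeq on GRCm38.p6. Capitals mark matches to GGGCGG or ACGTG on either strand, and GGGCGG reads as CCGCCC here because its 4 matches lay on the reverse strand. Col8a1 lies on the minus strand at chr16:57754738-57754987, and the 3 Prlr starts lie on the plus strand at chr15:10176988-10177237, chr15:10223656-10223905 and chr15:10293401-10293650.
Col8a1: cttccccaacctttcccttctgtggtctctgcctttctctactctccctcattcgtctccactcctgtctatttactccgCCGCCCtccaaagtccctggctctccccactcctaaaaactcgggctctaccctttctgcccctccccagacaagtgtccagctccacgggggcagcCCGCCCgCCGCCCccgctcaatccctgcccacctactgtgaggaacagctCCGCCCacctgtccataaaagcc
Prlr start 1: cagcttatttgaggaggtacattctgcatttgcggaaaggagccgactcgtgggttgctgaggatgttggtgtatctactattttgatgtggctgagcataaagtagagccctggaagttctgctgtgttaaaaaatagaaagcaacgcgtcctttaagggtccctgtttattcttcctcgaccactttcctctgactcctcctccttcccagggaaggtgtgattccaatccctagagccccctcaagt
Prlr start 2: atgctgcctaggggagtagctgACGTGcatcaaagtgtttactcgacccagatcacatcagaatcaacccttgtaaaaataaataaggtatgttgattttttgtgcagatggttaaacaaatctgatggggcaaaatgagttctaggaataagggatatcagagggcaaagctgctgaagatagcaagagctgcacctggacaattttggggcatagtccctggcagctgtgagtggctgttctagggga
Prlr start 3: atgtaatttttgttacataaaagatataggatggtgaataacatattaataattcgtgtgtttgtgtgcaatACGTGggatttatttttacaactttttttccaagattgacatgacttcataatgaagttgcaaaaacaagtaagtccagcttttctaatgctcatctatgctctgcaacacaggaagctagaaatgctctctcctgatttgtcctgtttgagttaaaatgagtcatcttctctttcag

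The Col8a1 window held 4 matches to GGGCGG, the core of GC boxes, and its GC content was 60.8%. Over 32851 annotated windows of this length, 32.7% held that motif and the median GC content was 52.4%. The 3 Prlr windows had a GC content of 48.0%, 44.8% and 32.8%, and starts 2 and 3 held 1 match each to ACGTG, the core of hypoxia response elements, which 16.6% of all windows held. Neither TATAAA nor TAATCC, the core bound by Otx2, was found in any of the 4 windows, against 12.4% and 6.25% of all windows. A match describes letters only, and the arrays do not tell which Prlr start was used.

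Values are normalised signals on the log2 scale, on which a step of 1 is a 2-fold change, and levels are compared within a probe and never between probes. A probe was called detected on an array when its detection p, the chance of such a signal from background beads, was under 0.05. Probes detected on at least 4 of the 9 arrays were tested, 16375 in all. Over these probes r between any 2 arrays was 0.9751 to 0.994. Over all 46116 probes the median signal before normalisation was 133.2 to 190.5 on knockout and 167 to 209.8 on wild-type arrays. Of all probes, 14895 to 17325 were detected per array. For 6 of 9 samples the title gives 1 genotype and the genotype characteristic the other, and 4 arrays are filed under another sample in the processed table than in the signal table. Groups here follow the titles, linked to arrays by the header of the signal table. No probe was matched to Car9, so the targeted gene itself was not checked. The probe NeoR-S, named for the neomycin resistance gene of many targeting vectors, read 10.45, 9.90, 9.94 and 10.56 on knockout 1 to 4 and 6.78 to 6.82 on the 5 wild-type arrays, so by that probe the titles separate the arrays. Xist, the RNA of the inactive X chromosome, read 10.89 on knockout 1 and 10.46 on both wild type 1 and wild type 2, against 6.83 to 6.93 on the other 6 arrays.

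None of the 6 genes passed the test for a difference between knockout and wild-type brains. Of the 8 probes 6 passed the filter, 0 of these 6 passed an adjusted p of 0.05 (limma), and 0 had an unadjusted p under 0.05. Of all 16375 probes 4 passed, 0.0244%, and 1876 probes, 11.5%, had an unadjusted p under 0.05. Without knockout 1, 48 probes passed, 0.293%, and again 0 of the 6. The groups overlapped for all 6 genes, while 3.68% of all tested probes had groups that did not. Fewer cells of a type and less RNA per cell cannot be told apart in RNA of bulk tissue, for these genes or any other named below. Levels did vary between arrays. With 1 array per mouse, differences between mice and between arrays cannot be told apart. The SD over the 9 arrays was 0.78 for Clic6, 0.47 for Prlr, 0.56 for Enpp2, 0.91 for Dcn and 0.52 for Mgp, against a median of 0.11 over all tested probes. Each of these 5 SDs was above that of 98.8% or more of the tested probes, and only that of Col8a1, 0.13, lay near the middle, above 55.7%.

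**Figure D1:**
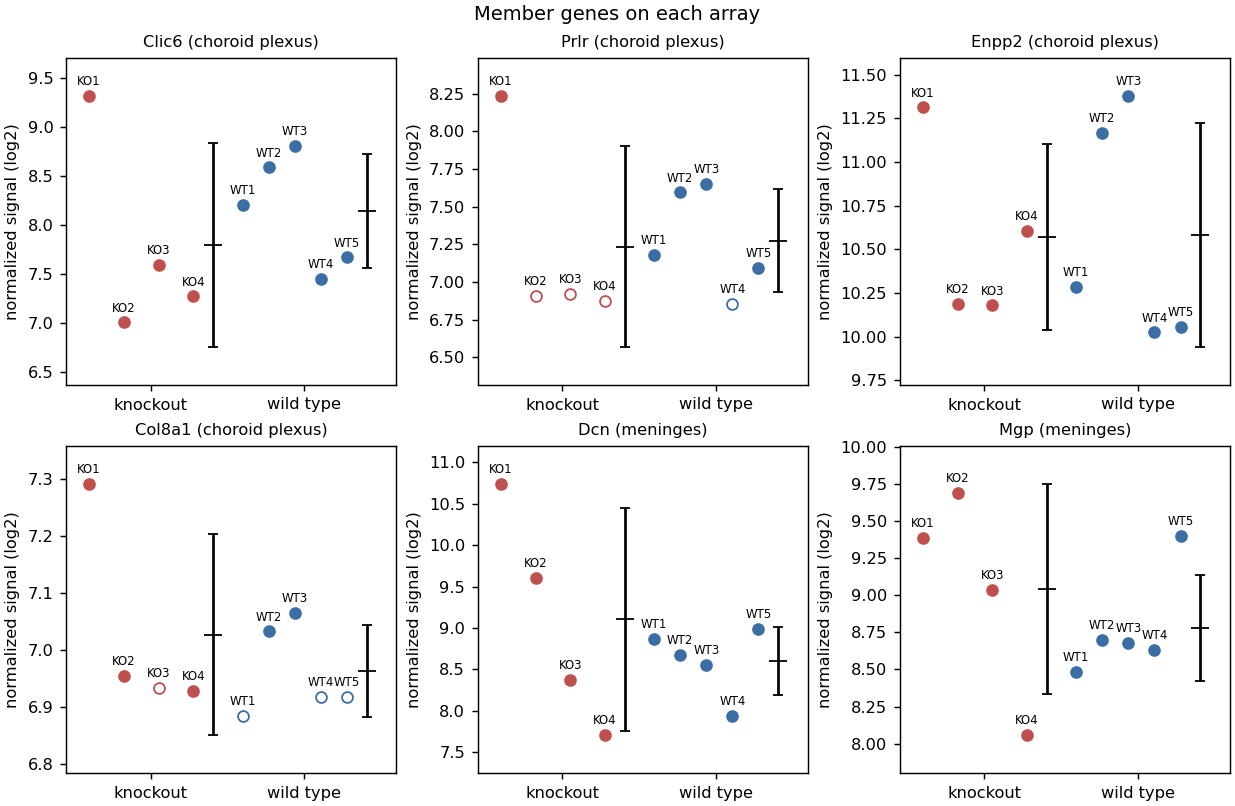
Normalised signal (log2) of the 6 genes on each array, knockout left of wild type, filled points detected and open points not detected, with the group mean and SD as a bar beside the points (n = 4 knockout and 5 wild type). The groups overlap in every panel, and knockout 1 is the highest array for Clic6, Prlr, Col8a1 and Dcn.

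Clic6 (probe scl0209195.6_234-S, chromosome 16) read 9.32, 7.01, 7.59 and 7.27 on knockout 1 to 4, against 8.21, 8.59, 8.81, 7.45 and 7.67 on wild type 1 to 5. It was detected on all 9 arrays, with deposited signals of 235.0 to 833.8 in knockout and 354.4 to 774.6 in wild-type brains. Knockout 1 was the highest array and the other 3 knockout arrays were among the lowest 4, so the knockout group spans the whole range, a 4.97-fold span between knockout 1 and knockout 2. The means were 7.80 ± 1.04 in knockout (SD, n = 4) and 8.15 ± 0.58 in wild type (SD, n = 5), a difference of -0.35 (SE 0.48, 95% interval -1.42 to 0.73, adjusted p = 0.845). Without knockout 1 the difference was -0.86 (SE 0.32, adjusted p = 0.260), without knockout 2 it was -0.085 (adjusted p = 0.978) and without knockout 4 it was -0.17 (adjusted p = 0.932).

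Prlr (probe scl0019116.1_207-S, chromosome 15) was highest on the same 4 arrays as Clic6 and was detected on all of these. It read 8.24, 6.91, 6.92 and 6.88 on knockout 1 to 4, against 7.18, 7.59, 7.65, 6.85 and 7.10 on wild type 1 to 5. In knockout brains it was detected on knockout 1 only, and in wild-type brains on 4 of 5 arrays, all but wild type 4. The receptor's signal was thus at background on 4 arrays, and the values there carry no order. The means were 7.24 ± 0.67 in knockout (SD, n = 4) and 7.28 ± 0.34 in wild type (SD, n = 5), a difference of -0.040 (SE 0.30, 95% interval -0.71 to 0.63, adjusted p = 0.978). Without knockout 1 it was -0.37 (SE 0.18, adjusted p = 0.388). The other Prlr probe, scl019116.4_17-S, was detected on 0 of 9 arrays, at 6.68 to 6.75, and was not tested.

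Enpp2 (probe scl018606.1_11-S, chromosome 15) was detected on all 9 arrays. It read 11.31, 10.19, 10.18 and 10.61 on knockout 1 to 4, against 10.28, 11.17, 11.38, 10.02 and 10.06 on wild type 1 to 5. Knockout 1, wild type 2 and wild type 3 stood together at the top, with a gap of 0.56 to the next array, which is 41.3% of the whole range. The means were 10.57 ± 0.53 in knockout (SD, n = 4) and 10.58 ± 0.64 in wild type (SD, n = 5), a difference of -0.011 (SE 0.35, 95% interval -0.80 to 0.78, adjusted p = 0.995). The interval leaves room for a 1.72-fold higher or a 0.573-fold level in the knockout.

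Col8a1 (probe scl0012837.1_129-S, chromosome 16) was close to background. It read 7.29, 6.95, 6.93 and 6.93 on knockout 1 to 4, against 6.88, 7.03, 7.06, 6.92 and 6.92 on wild type 1 to 5, and was detected on 3 of 4 knockout and 2 of 5 wild-type arrays. Knockout 1 again stood alone at the top, and the gap below it was 55.6% of the range. The means were 7.03 ± 0.18 in knockout (SD, n = 4) and 6.96 ± 0.080 in wild type (SD, n = 5), a difference of 0.064 (SE 0.082, 95% interval -0.12 to 0.25, adjusted p = 0.831), and -0.024 without knockout 1.

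Dcn varied most of the 6 genes. Its probe scl0013179.1_275-S (chromosome 10) read 10.74, 9.61, 8.37 and 7.70 on knockout 1 to 4, against 8.87, 8.68, 8.56, 7.94 and 8.99 on wild type 1 to 5. The knockout arrays took the highest 2 places and the lowest, an 8.20-fold span between knockout 1 and knockout 4, while wild-type arrays lay between. The means were 9.11 ± 1.35 in knockout (SD, n = 4) and 8.60 ± 0.41 in wild type (SD, n = 5), a difference of 0.50 (SE 0.55, 95% interval -0.74 to 1.74, adjusted p = 0.797). Without knockout 1 it was -0.045 (SE 0.41, adjusted p = 0.979). The other Dcn probe, scl013179.1_84-S, read 7.54, 7.10, 6.87 and 6.79 on knockout 1 to 4 and 6.84 to 7.01 on the wild-type arrays. It was detected on knockout 1, knockout 2 and wild type 5 only, the 3 highest arrays of the first probe, and r between the Dcn probes was 0.958 over the 9 arrays.

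Mgp (probe scl017313.2_5-S, chromosome 6) was detected on all 9 arrays. It read 9.38, 9.69, 9.03 and 8.06 on knockout 1 to 4, against 8.48, 8.70, 8.68, 8.63 and 9.40 on wild type 1 to 5. Knockout 2, wild type 5 and knockout 1 were the 3 highest arrays, the same 3 as for Dcn, and knockout 4 was the lowest for both genes. The means were 9.04 ± 0.71 in knockout (SD, n = 4) and 8.78 ± 0.36 in wild type (SD, n = 5), a difference of 0.26 (SE 0.32, 95% interval -0.45 to 0.98, adjusted p = 0.818). Without knockout 2 it was 0.048 and without knockout 4 it was 0.59 (adjusted p = 0.979 and 0.286).

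**Figure D2:**
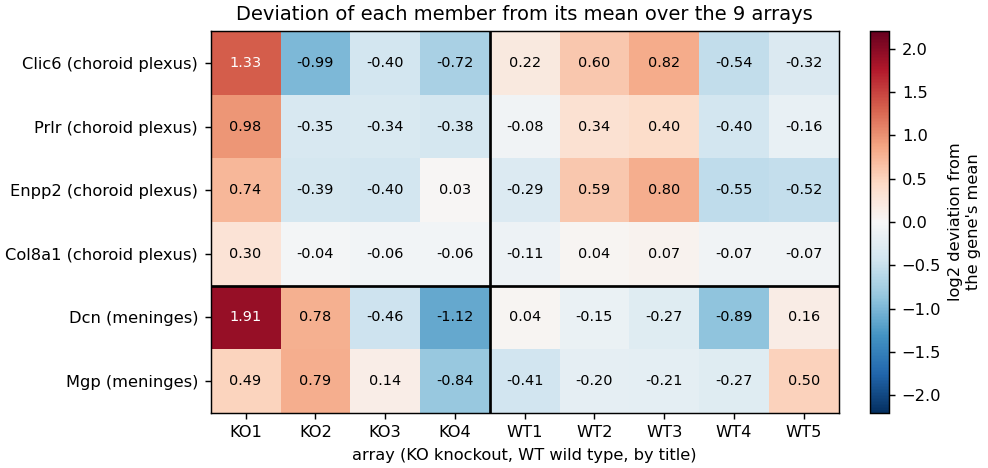
Deviation of each gene from its own mean over the 9 arrays (log2, colour and printed value), knockout arrays left of wild-type arrays, choroid plexus genes above meningeal genes. Knockout 1, wild type 2 and wild type 3 are above the mean for all 4 choroid plexus genes, while knockout 2 is at -0.99 for Clic6 and at 0.78 and 0.79 for Dcn and Mgp.

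The arrays were ordered for each gene. The order from high to low was knockout 1, wild type 3, wild type 2 and wild type 1 for both Clic6 and Prlr. These 4 arrays are the first 4 columns of the signal table, and neither labels nor headers say whether that was an order of handling. They also include all 3 arrays with high Xist, knockout 1, wild type 1 and wild type 2, which are the first 3 columns. The part of the column order in the result was not tested, and correlations within the Xist classes are given below. For Enpp2 the highest 3 arrays were wild type 3, knockout 1 and wild type 2, and for Col8a1 they were knockout 1, wild type 3 and wild type 2. On wild type 1 Enpp2 was below the 4 highest arrays and Col8a1 was not detected. Knockout 2 was the lowest array for Clic6 and the highest for Mgp. Knockout 1 was among the highest 3 arrays for all 6 genes.

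Across the 9 arrays the correlation passed the threshold for all 6 pairs of choroid plexus genes and for Dcn with Mgp, and for 0 of the 8 pairs that joined the tissues, although Col8a1 with Dcn (r = 0.720) and Prlr with Dcn (r = 0.679) came close to Dcn with Mgp (r = 0.741). Prlr and Col8a1 were each at background on 4 of these arrays, where their ranks carry no order. All 15 pairs were tested with an exact two-sided permutation test and adjusted over the 15. Clic6 and Prlr gave the highest Pearson r, 0.954 (adjusted exact permutation p = 0.0019), with Spearman rho 0.933 (adjusted exact permutation p = 0.0112). The other 5 choroid plexus pairs had r of 0.794 to 0.922 (adjusted exact permutation p = 0.0369 to 0.0383) but rho of 0.467 to 0.750 (adjusted exact permutation p = 0.138 to 0.398), so by ranks these 5 did not pass. Dcn and Mgp had r = 0.741 (adjusted exact permutation p = 0.0406) and rho 0.733 (adjusted exact permutation p = 0.138). The 8 pairs of a choroid plexus with a meningeal gene ran from r = -0.133 for Enpp2 with Mgp to 0.720 for Col8a1 with Dcn (adjusted exact permutation p = 0.147 to 0.990).

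**Figure D3:**
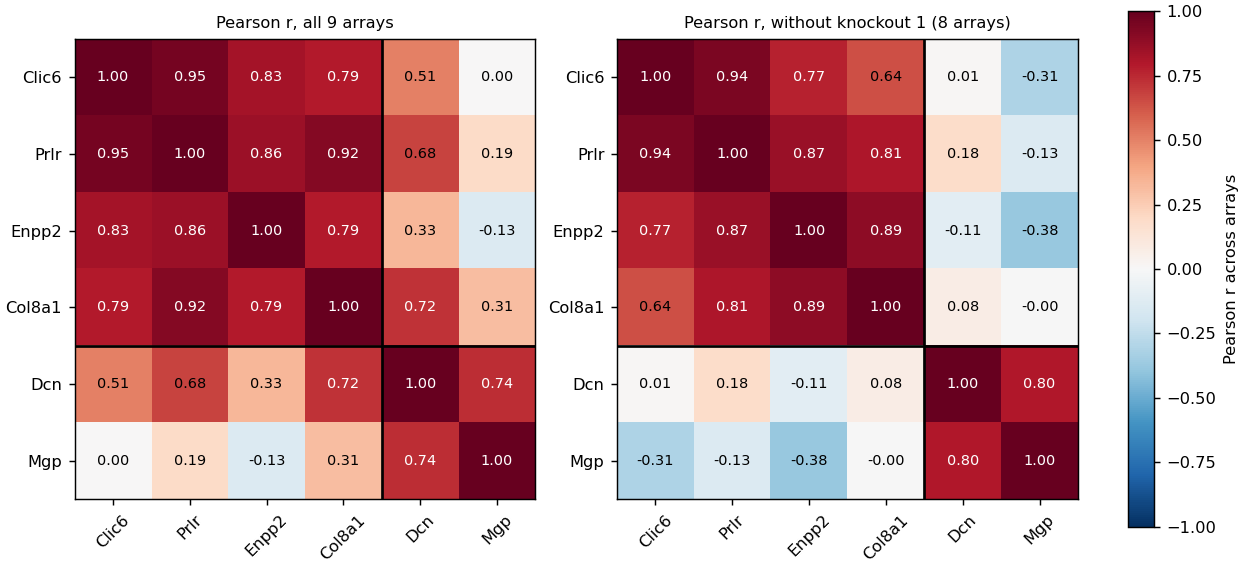
Pearson r between the 6 genes over all 9 arrays (left) and without knockout 1 (right), with lines between the choroid plexus genes (upper left block) and the meningeal genes (lower right block). Without knockout 1 the 8 pairs that join the blocks lie between -0.377 and 0.182, while pairs within a block lie between 0.644 and 0.943.

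The number of pairs past the threshold changed when single arrays were left out. Of the 15 pairs 7 passed over all arrays, and 1 of 15, Clic6 with Prlr, without knockout 1 (r = 0.943, adjusted exact permutation p = 0.0171). The count was likewise 1 without wild type 2, wild type 3, wild type 4 or wild type 5, and 5 to 8 without any of the other 4 arrays. Without wild type 4 or 5, r of Enpp2 with Col8a1 was 0.787 or 0.785, close to its 0.795, at an adjusted exact permutation p of 0.0595 or 0.0516. Within the choroid plexus genes, r without knockout 1 was 0.772 for Clic6 with Enpp2, 0.644 for Clic6 with Col8a1, 0.866 for Prlr with Enpp2, 0.806 for Prlr with Col8a1 and 0.893 for Enpp2 with Col8a1. For Dcn with Mgp it was 0.803 (adjusted exact permutation p = 0.127). Between the tissues, r for Clic6 with Dcn fell to 0.0116 without knockout 1, against 0.507 with it, and for Col8a1 with Dcn to 0.0757, against 0.720. Without knockout 2, Dcn correlated with Clic6 (r = 0.789) and with Prlr (r = 0.843), each at an adjusted exact permutation p of 0.0473. The difference between correlations within and between tissues was not itself tested.

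Without the 2 arrays farthest from the median of the first gene, r for Clic6 with Prlr was 0.906 (exact permutation p = 0.00675, and 0.101 adjusted over the 15 pairs), and r for Dcn with Mgp was 0.694 (exact permutation p = 0.0956). The arrays left out were knockout 1 and wild type 3 for every pair but Dcn with Mgp, where they were knockout 1 and knockout 4. No pair passed over the 7 arrays left. For Enpp2 with Col8a1 r was 0.787 there, against 0.795 over all arrays, while for Clic6 with Col8a1 it was 0.364, against 0.794. As deviations from the knockout and wild-type means, r was 0.972 for Clic6 with Prlr (adjusted exact permutation p = 0.0312) and 0.720 for Dcn with Mgp (adjusted exact permutation p = 0.174). As deviations from the means of the 3 arrays with high and the 6 with low Xist, it was 0.919 (adjusted exact permutation p = 0.0590) and 0.888 (adjusted exact permutation p = 0.0486).

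**Figure D4:**
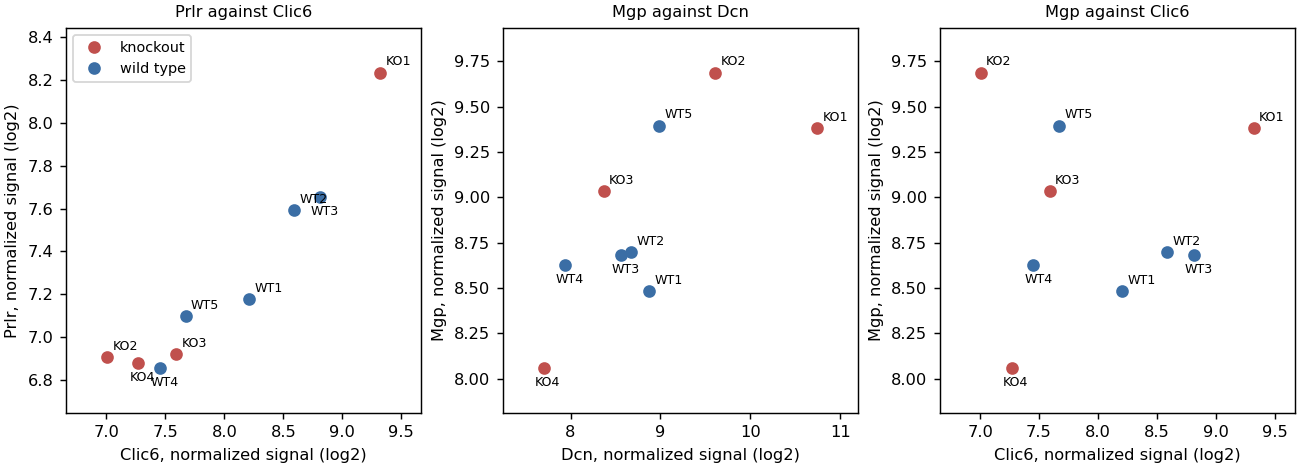
Normalised signal (log2) of Prlr against Clic6, Mgp against Dcn and Mgp against Clic6, each point an array, knockout red and wild type blue. Clic6 and Prlr follow 1 line with knockout 1 at its end (r = 0.954), Dcn and Mgp scatter more widely around theirs (r = 0.741), and Clic6 and Mgp show no relation (r = 0.0046).

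How often probes correlated this highly was counted over the table. Of all tested probes 0.0244% had an r with Clic6 as high as Prlr did, and 0.055% an r with Prlr as high as Clic6 did. For Dcn and Mgp the shares were 2.52% and 1.85%, and for Clic6 with Col8a1 they were 1.34% and 1.17%. Between the tissues they were 2.39% and 3.27% for Col8a1 with Dcn, near those of Dcn with Mgp, and 4.59% and 4.46% for Prlr with Dcn. Among named genes other than itself, Clic6 was most like Prlr, Slc4a2 (r = 0.949) and Coq8b (0.945), and Prlr was most like Clic6, Slc4a2 (0.939) and Tuba1c (0.930). The closest to Enpp2 were Rfxap (0.947), Ifi27l2a (0.937) and Tent4a (0.914), and to Col8a1 they were Nup54 (0.946), Tmem33 (0.944) and Cul4b (0.940). Dcn was most like Cd63 (0.950), Gm4884 (0.943) and Cgnl1 (0.933), and Mgp most like Fadd (0.952), Gstm1 (0.909) and Lasp1 (0.898). These were picked as the highest of 4394 named genes over 9 arrays and are a description. Of the 6 genes, only Clic6 and Prlr were among each other's 3 closest.

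The label of choroid plexus epithelium was set against a list of 30 marker genes, of which 9 had a probe and 6 were tested: the 4 genes above with Ace, which encodes angiotensin-converting enzyme, and Cab39l. The knockout was higher for 3 and lower for 3, the median difference was -0.00099 and 0 passed, beside a median of -0.00035 over all tested probes. Ace averaged 6.97 ± 0.031 in knockout (SD, n = 4) and 6.95 ± 0.044 in wild type (SD, n = 5), and Cab39l 6.99 ± 0.067 in knockout and 6.98 ± 0.018 in wild type. Both lay near background. For Ace, r was -0.26 to 0.0027 with the 4 choroid plexus genes and 0.17 with both Dcn and Mgp. For Cab39l it was 0.48 to 0.77 with the 4 choroid plexus genes, 0.79 with Dcn and 0.46 with Mgp. F5, Otx2 and Cldn2 had probes that did not pass the filter. Cldn2, a claudin of the epithelium's tight junctions, was detected on knockout 1, wild type 2 and wild type 3 only, with 7.27 on knockout 1 and 7.06 on wild type 3, the arrays where Enpp2 and Col8a1 were highest. Otx2, a transcription factor of the choroid plexus, read 7.08 and 7.16 on knockout 1 and 2 and 7.12 on wild type 3, with 6.67 to 6.83 on the other 6 arrays. The list mean deviated by 0.57 on knockout 1, 0.25 on wild type 2 and 0.35 on wild type 3, and by -0.29 to -0.043 on the other 6 arrays. As 4 of its 6 genes are those described above, this mean is no independent check of the label.

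The list for meninges and fibroblasts held 32 genes, of which 10 had a probe and 6 were tested. The knockout was higher for 4 and lower for 2, with a median difference of 0.051 and 0 past the threshold. Col1a1 and Col3a1, fibrillar collagens that define fibroblasts, were detected on 0 of 9 arrays and Col1a2 on 1. The probes of the neuronal markers Snap25 and Nefl and the astrocyte marker Aldh1l1 were also detected on 0 of 9 arrays. A probe that was not detected thus does not show that its transcript was absent. Islr and Pcolce were detected on all 9 arrays, Gjb2 on 8 and Col6a3 on 4. Pcolce, an enhancer of procollagen processing, averaged 7.14 ± 0.24 in knockout (SD, n = 4) and 7.13 ± 0.075 in wild type (SD, n = 5), and its highest array was knockout 1 at 7.49. Its r was 0.64 to 0.91 with the 4 choroid plexus genes, 0.81 with Dcn and 0.37 with Mgp. Gjb2, which encodes a connexin of the meninges, averaged 7.15 ± 0.21 in knockout (SD, n = 4) and 7.06 ± 0.20 in wild type (SD, n = 5). It was highest on knockout 2 (7.44) and wild type 5 (7.39), as Mgp was, with an r of 0.84 with Mgp, 0.47 with Dcn and -0.35 to -0.030 with the 4 choroid plexus genes. Islr differed by -0.046 and Col6a3 by -0.034, and r with Dcn and Mgp was 0.46 and 0.34 for Islr and 0.18 and 0.38 for Col6a3. Slc22a6, an organic anion transporter, did not pass the filter.

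Of 11 ependymal markers only Mia and Tm4sf1 had a probe, and neither passed the filter. Acta2 and Abcc9, the mural cell markers with a probe, did not pass either. The summed level of the 6 choroid plexus genes was 1792 to 3901 in knockout and 1705 to 3699 in wild-type brains, in normalised signal units, and that of the 6 meningeal genes 992 to 2976 in knockout and 1177 to 1774 in wild-type brains. Such sums weigh probes of strong signal most, and Enpp2, which oligodendrocytes also produce, makes up most of the choroid plexus sum. The 6 oligodendrocyte and myelin genes had differences below 0, with a median of -0.35 and 0 past the threshold, among them Cnp at -0.38 (adjusted p = 0.227), Trf at -0.38 (0.454) and Fa2h at -0.33 (0.548). Their mean deviated most upward on wild type 3 (0.43) and wild type 1 (0.41) and most downward on knockout 4 (-0.49), and by -0.13 on knockout 1. Their summed level was 3317 to 5235 in knockout and 4760 to 6918 in wild-type brains. The astrocyte list had 4 genes lower and 0 higher, with Fgfr3 at -0.28 (adjusted p = 0.583), Apoe at -0.12 (0.716) and Aqp4 at -0.21 (0.769). The neuronal list had 4 lower and 1 higher, with Grin1 at -0.40 (0.230), Rbfox3 at -0.28 (0.435) and Syt1 at 0.17 (0.553), and both endothelial genes, Egfl7 at 0.083 (0.779) and Pecam1 at -0.017 (0.959), did not pass. Of 3 blood genes S100a9 was at 0.67 (0.309), Hba-a1 at -0.044 (0.952) and Hbb-b1 at 0.021 (0.986). The part of these cell types in the differences between arrays was not tested.

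Genes that act with the 6 did not pass either. Beside autotaxin, which makes lysophosphatidic acid, 4 of 9 genes of that lipid's receptors and phosphatases were tested: the phosphatase genes Plpp3 and Plpp2 differed by -0.091 and 0.018, and the receptor gene Lpar4 by 0.018 (adjusted p = 0.867 to 0.937). Beside the prolactin receptor, Cish, a target that STAT5 induces, averaged 7.21 ± 0.067 in knockout (SD, n = 4) and 7.46 ± 0.084 in wild type (SD, n = 5), a difference of -0.25 (SE 0.054, adjusted p = 0.179). Its unadjusted p was 0.0011, in a table where 11.5% of probes had one under 0.05, and it did not pass. Jak2, the kinase bound to the receptor, differed by 0.15 (adjusted p = 0.692) and Socs1, a suppressor of cytokine signalling, by 0.0087 (adjusted p = 0.963). Of 14 genes for proteoglycans and calcification only Tgfb2, a ligand that decorin binds, was tested, at 0.18 (adjusted p = 0.564), and it read highest on knockout 1 as Dcn did. Clic4, of the family of Clic6, differed by -0.20 (adjusted p = 0.685), and of the collagens Col5a1 and Col6a1 differed by 0.082 each (adjusted p = 0.743 and 0.958).

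The group differences depended on how the labels were read. By NeoR-S, only the titles linked through the signal table separate the arrays. Each of the other 3 readings counts 1 or more arrays with high NeoR-S as wild type. With the genotype characteristic in place of the title, Clic6 differed by 0.58 (95% interval -0.45 to 1.61), Prlr by 0.36, Enpp2 by 0.21, Col8a1 by 0.10, Dcn by 0.41 and Mgp by 0.23. With titles linked through the processed table, they differed by -0.23, 0.028, -0.33, 0.051, 0.88 and 0.68 in the same order, and with the characteristic through that table by 0.46, 0.30, 0.53, 0.11, 0.027 and -0.19. Only Col8a1 and Dcn kept a positive difference in all 4 readings. In 1 reading, titles through the processed table, the 95% interval of Mgp (0.14 to 1.22) left out 0, but its adjusted p was 0.9998, and those of all 6 genes in these 3 readings were 0.9996 to 0.9998. In each of these readings 0% of all tested probes passed. The correlations over all 9 arrays do not use the group labels, whereas those of deviations from the group means were computed for the titles alone.

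**Figure D5:**
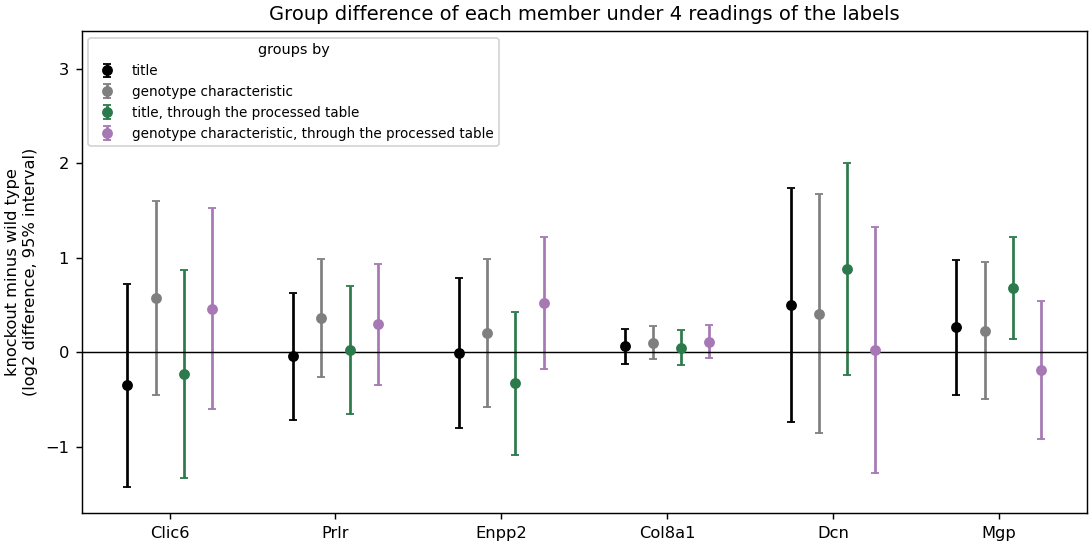
Difference between knockout and wild type (log2, points, with 95% intervals from limma as bars) for the 6 genes under 4 readings of the labels. Of the 24 intervals only that of Mgp with titles through the processed table lies off 0, and the sign of Clic6, Prlr, Enpp2 and Mgp depends on the reading. Only the titles through the signal table separate the arrays by NeoR-S.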

How the data were processed

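RNA from 9 mouse brains was read on single-colour Illumina bead arrays. The authors deposited, per the file headers, intensity signals without normalization, and beside each a fraction that the header calls a detection p-value. That deposited fraction rises with the signal, so 1 minus it was used as the detection p. A second table holds the authors' deposited log2 values, whose columns share the same quartiles. No label or header names the scanner software.

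Names come from the gene number in the probe identifier, matched to a RefSeq gene table of GRCm38.p6. Probes whose identifier carries a RIKEN clone instead were named where that table lists the clone for a single gene. Of 10024 gene numbers 81.1% were in that table, against 42.5% to 45.9% after shifting them by 1 to 3, so the reading is an inference. In all 10814 probes were named.

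Signals of 46116 probes, without 4 bacterial control rows, were background-corrected and quantile-normalized with neqc of limma 3.58.1 (R 4.3.3, offset 16). Probes detected (detection p under 0.05) on at least 4 of 9 arrays were kept. Groups were compared with lmFit and eBayes (two-sided), p-values were adjusted by Benjamini and Hochberg's method over all 16375 of these, and every adjusted p for a gene is limma's. Correlations used Python 3.11.15 and exact permutation tests over all pairings (scipy's two-sided definition). The number of arrays limits the precision. The test was first tried on simulated data.

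The 6 genes, the lists and the tests were chosen with earlier results of these data known. Named items are all probes of the 6 genes, kept genes of the choroid plexus, meningeal and ependymal lists, up to 3 of smallest p from each other list, the 3 named genes most like each of the 6, Xist and NeoR-S. Cldn2, Otx2 and other genes named as not passing the filter are the rest of those lists. Snap25, Nefl and Aldh1l1 were added as undetected markers of other brain cells. Replicate numbers in the titles were not used as pairs in the main fit: deviations from the group means correlated at 0.10, 0.089, -0.31 and 0.011 for numbers 1 to 4. Arrays of unlike number were not compared, so these values do not show that the samples were unpaired. Alternatives were other readings of the labels, other filters and normalizations, no background correction, weighted arrays, a trended robust prior, the replicate block, the Xist class and leaving out each array.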

Additional observations from a re-analysis of the deposited data

Results flagged for a closer look

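Within a group, 1 array stood apart from the rest by Dixon's test in 4 of the 18 groups of values tested (8 probes of the 6 genes and the median signal, in knockout and in wild type); chance gives about 1 in 20. Prlr read 8.24 on knockout 1, with the nearest knockout array at 6.92. Col8a1 read 7.29 on knockout 1, with the nearest knockout array at 6.95. Mgp read 9.40 on wild type 5, with the nearest wild-type array at 8.70. The median signal before normalisation was 133.2 on knockout 4, with the nearest knockout array at 182. Prlr was not detected on the other 3 knockout arrays, and knockout 4 had the lowest Dcn and Mgp. The 18 groups are not independent, with r = 0.958 between the 2 Dcn probes, and their count was not tested against chance.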

How the results depend on the processing

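In none of 24 alternatives did any of the 6 genes pass the threshold. Of all probes 4 passed, against 0 with the genotype characteristic, titles through the processed table, the characteristic through that table or detection on all arrays, 11 with no background correction, 2 with median scaling, 13 with the authors' processed values, 7 with a trended robust prior, 2 with the Xist class as covariate, 1 with the replicate number as a block, and 2 to 48 leaving out an array. The block changed no call of the 6 genes.

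Signs turned for Clic6 (0.58 with the characteristic, 0.46 with it through the processed table), Prlr (0.36, 0.028 and 0.30 in the other readings of the labels, 0.054 with the Xist class), Enpp2 (0.21 and 0.53 with the characteristic, 0.018 with cyclic loess, 0.050 with median scaling, 0.068 with the Xist class) and Mgp (-0.19 with the characteristic through the processed table). The other readings of the labels do not separate the arrays by NeoR-S. Leaving out an array, differences ranged from -0.86 to -0.085 for Clic6, -0.37 to 0.080 for Prlr, -0.26 to 0.19 for Enpp2, -0.024 to 0.097 for Col8a1, -0.045 to 0.97 for Dcn and 0.048 to 0.59 for Mgp. The cause was not tested.

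Of 15 pairs 7 correlated past the threshold, against 1 by Spearman rank, 0 without the 2 farthest arrays, 1 from the group means, 4 with no background correction, 1 with median scaling, 1 from the means of the Xist classes and 1 to 8 leaving out an array. Clic6 with Mgp turned to -0.30 without the 2 farthest arrays, -0.074 with no background correction and -0.049 with median scaling, Enpp2 with Dcn to -0.13 and Prlr with Mgp to -0.076 without the 2 farthest. Leaving out an array, r ranged from -0.31 to 0.38 for Clic6 with Mgp, -0.11 to 0.46 for Enpp2 with Dcn, -0.38 to 0.021 for Enpp2 with Mgp, -0.13 to 0.44 for Prlr with Mgp and -0.0018 to 0.46 for Col8a1 with Mgp. Col8a1 gave no value with detection on all arrays or a detection p under 0.01, nor Prlr with detection on all arrays. Signals of Prlr and Col8a1 near background limit what those probes can show.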
